A study of Mus musculus with 4 samples.

Results

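The let-7 family was followed here as the 10 main (5p) strands of let-7 and miR-98, out of 1915 mature mouse miRNAs in the deposited table, of which 1101 had at least 1 count. The members were chosen by name, and each had a count in each of the 4 libraries. They were mmu-let-7a-5p, mmu-let-7b-5p, mmu-let-7c-5p, mmu-let-7d-5p, mmu-let-7e-5p, mmu-let-7f-5p, mmu-let-7g-5p, mmu-let-7i-5p, mmu-let-7k and mmu-miR-98-5p.

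The small RNA came from MIN6, an insulin-secreting mouse tumour line that serves as a model of the pancreatic β-cell, and from exosomes, the small vesicles that these cells release into their medium. There were 2 libraries of MIN6 cells and 2 libraries of MIN6-derived exosomes, with no treatment named for either group, and the comparison asks which cellular miRNAs the exosomes carry and in which proportions. The cells were grown in medium with exosome-depleted serum, and the exosomes were collected from conditioned medium pooled over several flasks by filtration and ultracentrifugation. Both groups derive from the same line, and nothing in the labels says that the 2 libraries of a group came from separate cultures, so the p-values measure only the spread between these libraries, which may be technical.

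let-7 was discovered in the worm C. elegans as a regulator of developmental timing, and its mouse relatives are among the most abundant miRNAs of differentiated cells. A miRNA is cut from a hairpin precursor, loaded on an Argonaute protein and guided to mRNAs mainly by its seed, the bases near its 5′ end. Known targets of the family include Hmga2, Ras genes and parts of the insulin and insulin-like growth factor pathway, and Lin28 proteins block the maturation of many of its precursors.

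The 10 mature sequences are shown because the members differ from each other by few bases and some of the results are given by those differences. They were read from the deposited hairpin files and are identical to the RefSeq entries, and all of them carry the same seed, here in capitals (bases 2 to 8, counted from the 5′ end).
mmu-let-7a-5p: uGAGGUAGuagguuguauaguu
mmu-let-7b-5p: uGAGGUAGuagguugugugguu
mmu-let-7c-5p: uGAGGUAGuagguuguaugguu
mmu-let-7d-5p: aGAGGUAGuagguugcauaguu
mmu-let-7e-5p: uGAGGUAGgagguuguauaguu
mmu-let-7f-5p: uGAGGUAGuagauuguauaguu
mmu-let-7g-5p: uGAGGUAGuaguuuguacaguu
mmu-let-7i-5p: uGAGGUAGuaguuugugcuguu
mmu-let-7k: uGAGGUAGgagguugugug
mmu-miR-98-5p: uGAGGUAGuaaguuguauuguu

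Against let-7a-5p, with let-7a's base first and positions counted from its 5′ end, let-7c-5p differs at A19G, let-7e-5p at U9G and let-7f-5p at G12A. let-7b-5p differs at A17G and A19G, let-7d-5p at U1A and U16C, let-7g-5p at G12U and U18C, and miR-98-5p at G11A and A19U. let-7i-5p is the most distant of the members of 22 bases, with G12U, A17G, U18C and A19U. let-7k has 19 bases and differs by only U9G from the first 19 bases of let-7b-5p, and its first 16 bases are those of let-7e-5p. Reads of let-7b-5p or let-7e-5p that end early or hold a sequencing error therefore cannot be told apart from let-7k with certainty. Outside the family, mmu-miR-1961 has the same seed and had 2 counts in 1 cell library and none in the other libraries.

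The members come from 13 hairpins, placed here on GRCm38 by RefSeq. mir-let-7a-1 (chr13:48538179-48538272), mir-let-7f-1 (chr13:48537829-48537917) and mir-let-7d (chr13:48536012-48536114) lie together on the minus strand in an exon of the long non-coding RNA 6720427I07Rik. mir-let-7c-2 (chr15:85706603-85706697) and mir-let-7b (chr15:85707319-85707403) are 621 bases apart in an exon of the non-coding gene Lncppara. mir-let-7f-2 (chrX:151912346-151912428) and mir-98 (chrX:151913214-151913321) are 785 bases apart in an intron of Huwe1, which encodes a ubiquitin ligase.

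The other hairpins stand alone among the members. mir-let-7c-1 (chr16:77599657-77599750) is in an intron of Mir99ahg, mir-let-7e (chr17:17830352-17830444) in an intron of Spaca6, and mir-let-7g (chr9:106178840-106178927) in an intron of Wdr82. mir-let-7a-2 (chr9:41536716-41536811) is in an intron of the non-coding gene 3110039I08Rik. mir-let-7i (chr10:122985640-122985724, minus strand) overlaps an exon of the pseudogene D630033A02Rik, and mir-let-7k (chr5:147283189-147283298, minus strand) overlaps no other annotated gene.

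The depth behind the values differed strongly between the groups. The cell libraries held 2930217 and 2564068 mature counts and the exosome libraries 47447 and 31409, so a floor of 3 counts was at 1.02 and 1.17 RPM (a count scaled to 1e+06 mature counts of its library) in cells and at 63.2 and 95.5 RPM in exosomes. Every member was above the floor in each library, with let-7k the lowest at 25 and 11 counts in the exosomes. The intervals given here are 95% Wilson intervals of single libraries and cover counting error only.

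The β-cell label was checked on miR-375-3p, miR-7a-5p and miR-182-5p, which islet β-cells are known for. All 3 were detected in each library and together held 3.62% and 3.63% of the mature counts in cells and 1.91% and 0.847% in exosomes. Of 14 miRNAs known from blood, muscle, mesenchymal and acinar cells, 6 were detected in each cell library, and 10 and 8 in exosome replicates 1 and 2. Their summed share was 0.00317% and 0.00226% in cells against 0.889% and 0.306% in exosomes. By edgeR's quasi-likelihood fit 8 of the 9 tested were called higher in exosomes, against 23.7% of all tested miRNAs. These were the blood miRNAs miR-451a, miR-486a-5p, miR-223-3p, miR-142a-3p and miR-142a-5p and the mesenchymal miR-143-3p, miR-145a-5p and miR-199a-3p. All but miR-143-3p had 4 or fewer counts in each cell library. They had enough counts for the test only through the exosomes, so for them a call could only be in this direction. Of the muscle miRNAs, miR-1a-3p had 47 and 29 counts in cells and 3 and 0 in exosomes, while miR-133a-3p and miR-206-3p and the acinar miR-216a-5p and miR-217-5p were at 0 throughout. miR-466i-5p, miR-706 and miR-3473b, whose counts are the highest of non-members in exosomes, took 17.7% and 42.1% of the exosome counts against 0.116% and 0.0570% in cells. The part of these miRNAs in the results on let-7 was not tested, apart from the shares given without the most abundant non-members.

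The family made up most of the mature miRNA of MIN6 cells and a smaller, variable part of that of their exosomes. It took 1968420 and 1686678 counts in cell replicates 1 and 2, which is 67.2% and 65.8% of the mature counts. In the exosomes it took 19172 and 4402 counts, or 40.4% and 14.02%. The exosome libraries were thus both lower than the lower cell library, and the exosome replicates differed from each other far more than the cell replicates did. The mean share was 66.5% ± 0.987 (SD, n = 2) for the cell libraries. For the exosome libraries it was 27.2% ± 18.7 (SD, n = 2), a difference of -39.3 percentage points. A two-sided exact permutation test gave p = 0.33, the smallest value that 2 libraries against 2 allow. The counts are relative, so fewer let-7 molecules and more of other small RNA in the exosomes cannot be told apart.

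The size of the gap depended on the denominator. With the 5 most abundant non-members of each group taken out of the denominator, the family held 77.2% and 76.4% in cells and 58.3% and 33.5% in exosomes, a difference of -30.9 points. As a part of all counts on miRBase hairpins it held 40.8% and 40.8% in cells and 14.1% and 3.47% in exosomes. That denominator counts most reads of let-7a-5p, let-7c-5p and let-7f-5p at both of their hairpins, while the family sum counts them once. In cell replicate 1 let-7a-5p had 426194 mature counts, beside 422851 and 421691 at its hairpins. These shares are therefore too low, and their gap cannot be set beside the others. Without exosome replicate 1 the difference in the share of mature counts was -52.5 points, and without exosome replicate 2 it was -26.1 points, so the exosome libraries set its size.

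let-7f-5p led the family in the cells, at 180907 and 171217 RPM, and was at 65989 and 15091 RPM in the exosomes. let-7a-5p followed at 145448 and 145529 RPM in cells and 87740 and 25884 RPM in exosomes. let-7c-5p, the product of hairpins on chromosomes 16 and 15, was at 112523 and 114104 RPM in cells and 96128 and 32984 RPM in exosomes. For these 3 members both exosome libraries were lower than both cell libraries, by a wide margin for let-7f-5p and a narrow one for let-7c-5p in exosome replicate 1.

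let-7b-5p did not follow them: it was at 69949 and 70656 RPM in cells and at 91871 and 47279 RPM in exosomes. Its exosome libraries lay on either side of the cell libraries, so the groups overlapped. The only other member with overlapping groups on this scale was let-7k, at 355 and 394 RPM in cells and 527 and 350 RPM in exosomes.

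Among the less abundant members, let-7d-5p was at 56541 and 53544 RPM in cells and 19664 and 7004 RPM in exosomes, and let-7g-5p at 47179 and 44556 RPM in cells and 15343 and 3534 RPM in exosomes. let-7e-5p was at 23640 and 24878 RPM in cells and 15238 and 4935 RPM in exosomes. let-7i-5p was at 17729 and 16507 RPM in cells and 7461 and 2133 RPM in exosomes. miR-98-5p, at almost the level of let-7i-5p in the cells with 17495 and 16429 RPM, reached only 4110 and 955 RPM in the exosomes. In all 5 the groups were apart, which makes 8 of the 10 members with both exosome libraries below both cell libraries in RPM, against 33.8% of all tested miRNAs. Exosome replicate 2 was lower than exosome replicate 1 in each of the 10 members.

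**Figure D1:**
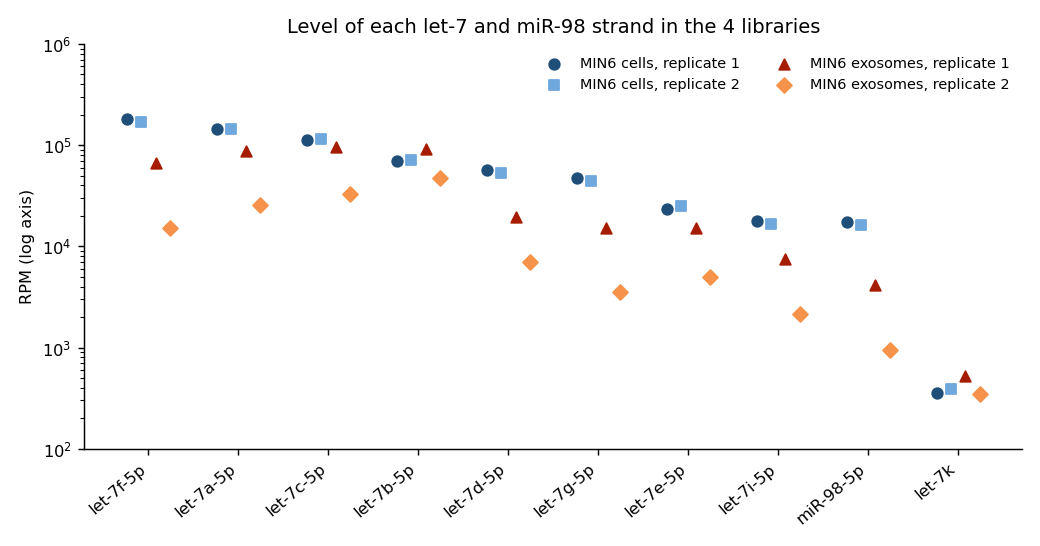
Level of each member in RPM (log axis) in the 2 cell libraries (circles, squares) and the 2 exosome libraries (triangles, diamonds), with members ordered by their mean in cells. The exosome points lie below the cell points in 8 members, and the groups overlap in let-7b-5p and let-7k.

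The order of the members in cells was the same in both libraries, from let-7f-5p over let-7a, let-7c, let-7b, let-7d, let-7g, let-7e, let-7i and miR-98 to let-7k. Of the 9 pairs of neighbours in that order, let-7i-5p and miR-98-5p had overlapping ranges, although let-7i-5p was the higher of the 2 in each library. In exosomes let-7f-5p was at rank 4 in both libraries, after let-7a-5p, let-7b-5p and let-7c-5p. Neighbours in the exosome order overlapped in range, except miR-98-5p and let-7k, and within the libraries let-7b with let-7c and let-7e with let-7g changed places between the replicates.

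For the test across all miRNAs, 438 with sufficient counts were fitted in edgeR (quasi-likelihood F test, TMM factors that correct for composition, Benjamini-Hochberg adjustment over the 438). At an adjusted p under 0.05, 7 of the 10 members were lower in exosomes and none was higher, where 129 of all 438 miRNAs (29.5%) were called lower. On the TMM-normalized scale the 4 libraries were separated by group in all 10 members, with the exosomes below, against 51.8% of all tested miRNAs. edgeR's exactTest at the thresholds of the study, an unadjusted p under 0.05 with a 2-fold change, called all 10 members lower, against 39.5% of the tested miRNAs. The median log2 fold change of the members was -2.99, beside -0.75 for all tested miRNAs.

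miR-98-5p had the largest change, from 26537 and 26842 TMM-normalized CPM in cells to 2299 and 699 in exosomes, a log2 fold change of -4.14 (SE 0.79, adjusted p = 0.0194 from the edgeR quasi-likelihood fit). let-7g-5p (log2 fold change -3.69, adjusted p = 0.0260 from the same edgeR fit), let-7f-5p (-3.53, adjusted p = 0.0344), let-7d-5p (-3.42, adjusted p = 0.0203) and let-7i-5p (-3.23, adjusted p = 0.0232) followed, from 12.9-fold to 9.35-fold lower, against 17.6-fold for miR-98-5p. let-7e-5p fell by 2.65 on the log2 scale (SE 0.64, adjusted p = 0.0314 from the same edgeR fit). let-7a-5p was the remaining call (adjusted p = 0.0437 from the same edgeR fit).

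The 3 members that did not pass were those with the smallest differences. let-7k was at 539 and 644 normalized CPM in cells and 295 and 256 in exosomes, a log2 fold change of -1.09 (SE 0.37, adjusted p = 0.0643 from the edgeR quasi-likelihood fit). let-7b-5p was at 106105 and 115435 in cells and 51394 and 34581 in exosomes, with a log2 fold change of -1.37 (SE 0.56) and an adjusted p = 0.103 from the same edgeR fit. let-7c-5p had a log2 fold change of -2.20 (SE 0.70, adjusted p = 0.0574 from the same edgeR fit). In each of these the 4 normalized values were separated by group, although the test was not passed.

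The scaling moved all of these values together. With library size alone in place of TMM the median over the 438 miRNAs moved from -0.75 to a log2 fold change of 0.61, and that of the members was -1.59, so the distance of the members to the median of all was -2.19 against -2.24 under TMM. On that scale 0 of the 10 members passed the quasi-likelihood test of edgeR (3 at an unadjusted p under 0.05), while 6.85% of all tested miRNAs were called lower. let-7k turned to a positive log2 fold change of 0.25, let-7b-5p was at -0.01, and the other 8 members were negative, from -2.73 for miR-98-5p to -0.80 for let-7c-5p. DESeq2 with its own size factors called 10 of 10 lower, against 30.8% of all tested miRNAs. The calls also rested on the cell pair: without cell replicate 1, and likewise without cell replicate 2, edgeR's test called 0 members and 0 of all 438 miRNAs, with 2 members at an unadjusted p under 0.05 in each case. Without exosome replicate 1 or exosome replicate 2 it called 10 of 10 lower, beside 36.3% and 38.4% of all tested miRNAs, but the lone exosome library is then assumed to vary as little as the cell pair.

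**Figure D2:**
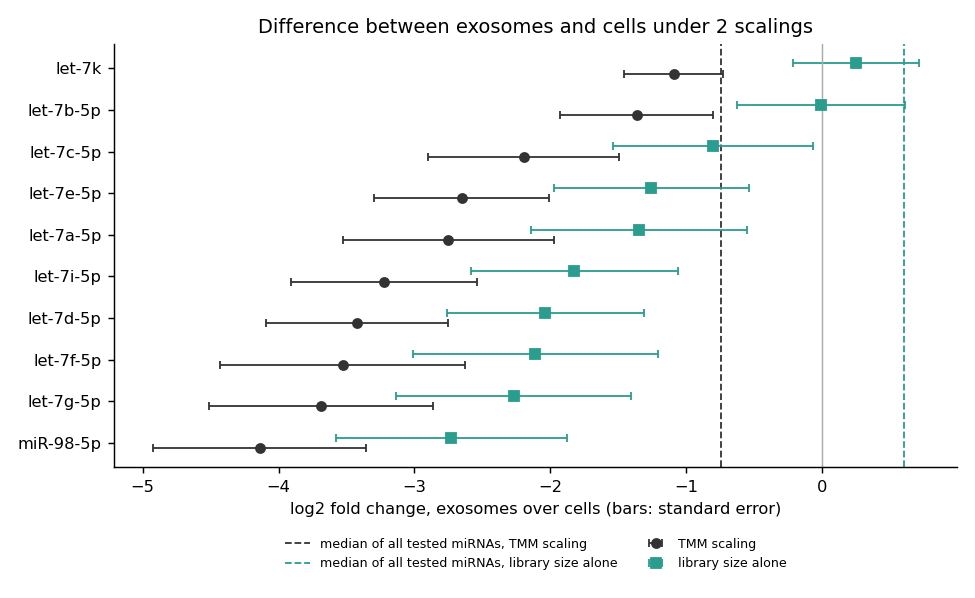
Log2 fold change of each member, exosomes over cells, with its standard error, under TMM scaling (circles) and with library size alone (squares); dashed lines mark the median of all tested miRNAs under each scaling, -0.75 and 0.61. The members keep their order and about the same distance to the dashed line while the zero line moves, and let-7k is above 0 with library size alone.

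Counting each member as a share of the family removes the scaling and shows how the mixture differed. In cells the family was 26.9% and 26.0% let-7f-5p, 21.7% and 22.1% let-7a-5p, 16.8% and 17.3% let-7c-5p and 10.4% and 10.7% let-7b-5p. In exosomes let-7b-5p made up 22.7% (22.1% to 23.3%) and 33.7% (32.4% to 35.1%), and let-7f-5p only 16.3% (15.8% to 16.9%) and 10.8% (9.89% to 11.7%). let-7b-5p thus took the first place of the family in exosome replicate 2 and the second, after let-7c-5p, in exosome replicate 1.

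let-7c-5p was also higher in share, at 23.8% and 23.5%, and let-7k went from 0.0529% and 0.0599% to 0.130% and 0.250%. let-7a-5p, at 21.7% and 18.5% in exosomes, and let-7e-5p, at 3.52% and 3.78% in cells and 3.77% and 3.52% in exosomes, overlapped between the groups. The other 5 members held smaller shares in both exosome libraries than in both cell libraries. let-7d-5p had 8.42% and 8.14% in cells and 4.87% and 5.00% in exosomes, and let-7g-5p had 7.02% and 6.77% in cells and 3.80% and 2.52% in exosomes. miR-98-5p went from 2.60% and 2.50% to 1.02% and 0.682%, and let-7i-5p from 2.64% and 2.51% to 1.85% and 1.52%.

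In all, the shares of 8 members did not overlap between the groups, 3 higher and 5 lower in exosomes. How many of all tested miRNAs would be apart relative to the family sum was not computed, so this count is a description. With 2 libraries a group, the exact permutation test of each share cannot go below p = 0.33. To turn the mixture of 1 cell library into that of the other, 1.67% of the family would have to be reassigned to another member. Between the exosome libraries this distance was 11.2%, and between cell and exosome libraries it ran from 18.5% to 30.3%, larger in each of the 4 pairs than within either group.

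**Figure D3:**
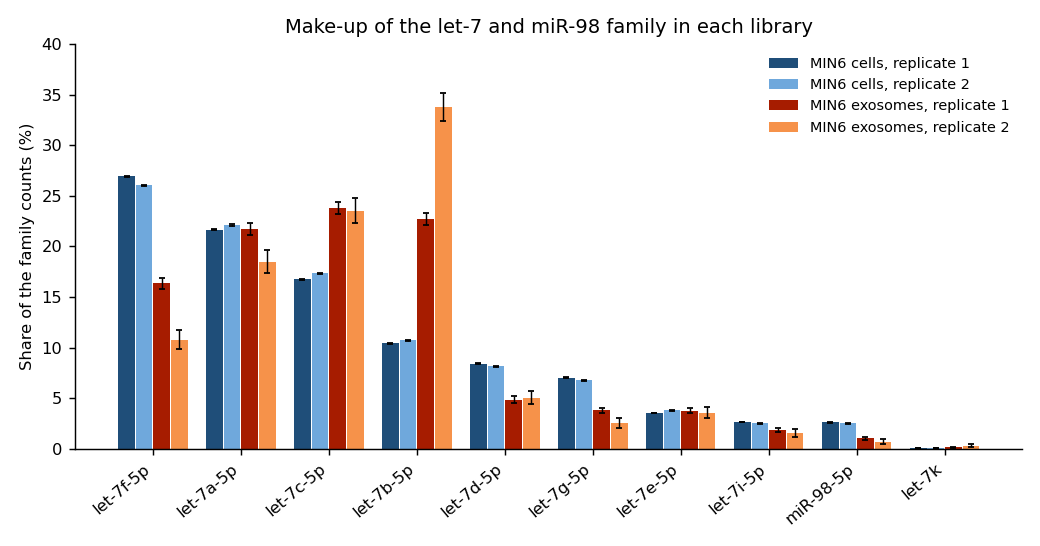
Share of the family counts (%) held by each member in the 4 libraries, with 95% Wilson intervals as bars; members are ordered by their mean level in cells. let-7b-5p is at 10.4% and 10.7% in cells and 22.7% and 33.7% in exosomes, while let-7f-5p goes from 26.9% and 26.0% to 16.3% and 10.8%.

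The same question was fitted in edgeR with the summed family counts as the library size, so that a log2 fold change is a change relative to the family. 1 of the 10 members, let-7b-5p, was higher (log2 fold change 1.42, SE 0.40, adjusted p = 0.0460 over the 438 miRNAs), a 2.67-fold gain on the family sum. On this scale 40.4% of all tested miRNAs were called higher and 1.14% lower. edgeR's quasi-likelihood test called 0 members lower, with 1 at an unadjusted p under 0.05, miR-98-5p (log2 fold change -1.58, adjusted p = 0.0521). DESeq2 was not run with this reference. The call of let-7b-5p was lost with no filter on low counts and with the replicate block, each of which left 0 members called by edgeR (3 and 0 at an unadjusted p under 0.05). In these 2 fits 26.9% and 36.1% of all tested miRNAs were still called higher. The call of let-7b-5p was also lost without cell replicate 1 or cell replicate 2, each of which leaves 1 cell library. There the median log2 value of the members was -0.36 and -0.38, beside 1.91 and 1.86 for all tested miRNAs. Many of the miRNAs outside the family stayed called higher in these fits. Without exosome replicate 1, 2 members were called higher and 5 lower, beside 36.5% and 5.48% of all tested miRNAs. Without exosome replicate 2, 3 were called higher and 4 lower, beside 42% and 9.82%, and in both fits the spread comes from the cell pair alone.

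The values relative to the family were graded. let-7k was at 1.69 (SE 0.60, adjusted p = 0.0849 from the same edgeR fit) and let-7c-5p at 0.47 (adjusted p = 0.311). let-7e-5p and let-7a-5p stayed near the family sum, with log2 values of 0.00 and -0.12. let-7i-5p was at -0.61, let-7d-5p at -0.75, let-7f-5p at -0.97 and let-7g-5p at -1.12, with adjusted p = 0.0990 from the edgeR fit for let-7g-5p and higher values for the other 3.

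The grading ran along the base content of the sequences shown above, a relation that was noticed after the values were seen and is given as a description. let-7b-5p and let-7k have 10 G bases, let-7c-5p and let-7e-5p have 9, let-7a-5p, let-7d-5p and let-7i-5p have 8, and let-7f-5p, let-7g-5p and miR-98-5p have 7. The log2 changes relative to the family were 1.42 and 1.69 in the members with 10, from 0.00 to 0.47 with 9, from -0.75 to -0.12 with 8 and from -1.58 to -0.97 with 7, so the 4 classes did not overlap. Over the 10 members, which share their libraries and most of their sequence and are not independent, Pearson's r was 0.96 and Spearman's rho was 0.97. Without let-7k, over the 9 members of 22 bases, r was 0.95. For the percentage of G and C bases r was 0.88, and for the log2 share of a member in the cells it was -0.41 over the 10 and 0.33 over the 9.

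The gradient was found in each exosome library and also between libraries of the same group. Exosome replicate 1 against the mean of the cells gave r = 0.95 with the number of G bases, and exosome replicate 2 gave r = 0.97, each over the same 10 members. In exosome replicate 1 the classes overlapped, with let-7d-5p (8 G bases) at -0.77 and let-7f-5p (7 G bases) at -0.70. Between the exosome libraries, the log2 ratio of replicate 2 to replicate 1 in share of the family was 0.57 for let-7b-5p and 0.94 for let-7k, and from -0.60 to -0.58 for the 3 members with 7 G bases (r = 0.93). There let-7d-5p with 8 G bases, at 0.04, was above let-7c-5p and let-7e-5p with 9, at -0.02 and -0.10. Between the cell libraries the ratio of replicate 2 to replicate 1 also tended to rise with the number of G bases, over a far smaller range. It was from 0.04 to 0.18 for the members with 10 G bases and from -0.06 to -0.05 for those with 7 (r = 0.83). The classes overlapped here: let-7i-5p with 8 was the lowest at -0.07, and let-7e-5p with 9, at 0.10, was above let-7b-5p. Over the 9 members of 22 bases r was 0.77. A difference that runs along base content was therefore also present between libraries of the same label, and its part in the difference between exosomes and cells was not tested. Among the 428 tested miRNAs outside the family, the percentage of G bases and the log2 fold change between exosomes and cells had a Spearman's rho of 0.23 across miRNAs. For the 90 of them that reached 10 counts in each library, rho was 0.30, and the relation is weak in both sets.

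**Figure D4:**
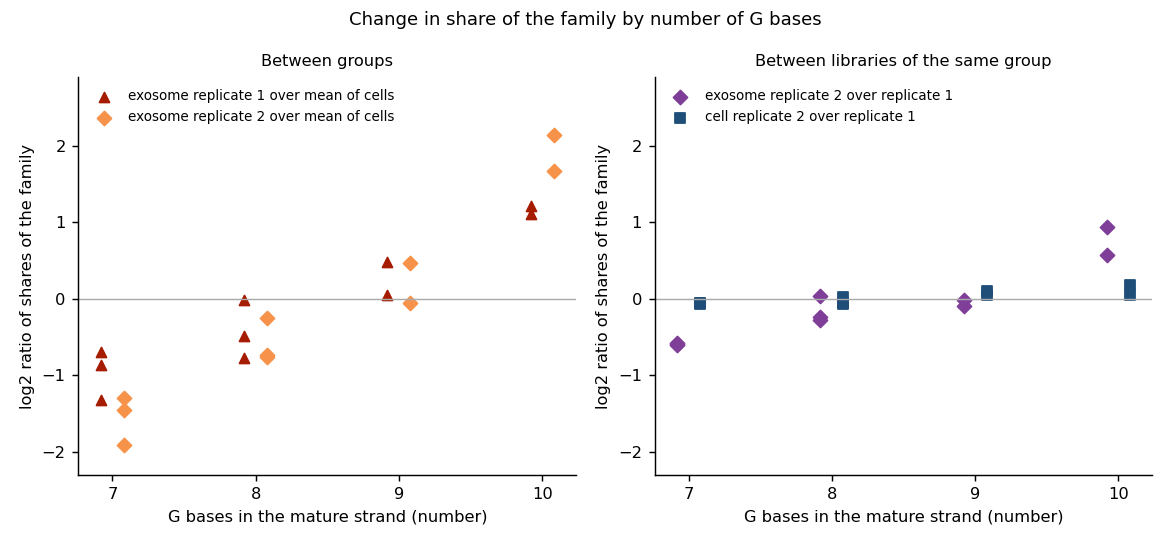
Log2 ratio of each member's share of the family against the number of G bases in its mature strand, for each exosome library over the mean of the cells (left) and between the libraries of each group (right); each point is 1 member. The points tend to rise from left to right in both panels, with some overlap between neighbouring numbers of G bases. They run from -1.33 to 1.21 for exosome replicate 1 and from -1.90 to 2.15 for exosome replicate 2 over cells. The narrowest range, from -0.07 to 0.18, is between the cell libraries.

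Pairs of members that differ by a single base restate these values as ratios within a library, which need no scaling. The ratios use the same counts as the gradient and add no separate evidence for it. let-7a-5p and let-7f-5p differ at G12A, and their ratio was 0.804 and 0.850 in cells and 1.33 and 1.72 in exosomes, a gain of 1.83-fold for the member with the G. let-7b-5p and let-7c-5p differ at G17A, with ratios of 0.622 and 0.619 in cells and 0.956 and 1.43 in exosomes. let-7a-5p to let-7c-5p, which differ at A19G, was 1.29 and 1.28 in cells and 0.913 and 0.785 in exosomes. In these 3 pairs the member with the additional G was relatively higher in both exosome libraries.

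The pair of let-7a-5p and let-7e-5p, which differ at U9G, was nearly level, with ratios of 6.15 and 5.85 in cells and 5.76 and 5.25 in exosomes. Both exosome ratios were below both cell ratios, so here too the member with the additional G was relatively higher. The intervals of the exosome ratios (5.32 to 6.23 and 4.42 to 6.23) reached those of the cells, so the difference in this pair did not go beyond counting error at the depth of the exosomes. Between let-7f-5p and let-7b-5p the ratio was 2.59 and 2.42 in cells and 0.718 and 0.319 in exosomes. This pair was picked because they were the most abundant members of the cells and of the exosomes in an earlier look at these data. Its change is therefore a description. For each of the 5 pairs the exact permutation p was 0.33, the smallest possible, which for let-7f-5p and let-7b-5p is no test.

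Ratios between members of the same hairpin cluster differed between the groups without overlap in the Huwe1 cluster and in the Lncppara cluster. In the chromosome 13 cluster this held for 1 of the 2 ratios to let-7d-5p, and for let-7a-5p to let-7f-5p, given above. let-7a-5p, let-7c-5p and let-7f-5p each have a further hairpin outside the cluster, so the ratios are not those of a single locus. In the Lncppara cluster let-7c-5p to let-7b-5p, the pair described above in the other direction, had the largest log2 change of these ratios, -0.92. In the Huwe1 cluster let-7f-5p to miR-98-5p was 10.3 and 10.4 in cells and 16.1 and 15.8 in exosomes, although let-7f-5p also comes from chromosome 13. In the chromosome 13 cluster let-7a-5p to let-7d-5p was 2.57 and 2.72 in cells and 4.46 and 3.70 in exosomes. let-7f-5p to let-7d-5p was 3.20 and 3.20 in cells and 3.36 and 2.15 in exosomes, and thus overlapped between the groups.

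let-7a-5p, let-7c-5p and let-7f-5p each come from 2 hairpins with the same mature strand, and nearly all of their reads were listed at both. Reads listed at only 1 of the 2 hairpins held 4.66% and 4.67% for mir-let-7f-1 and 1.90% and 1.74% for mir-let-7f-2 in cells. In exosomes these were 4.79% (4.10% to 5.60%) and 7.38% (5.36% to 10.1%) for mir-let-7f-1 and 2.01% (1.58% to 2.57%) and 1.05% (0.451% to 2.45%) for mir-let-7f-2. mir-let-7c-2 held 4.29% and 3.99% in cells and 2.94% (2.49% to 3.47%) and 4.73% (3.60% to 6.20%) in exosomes. The tables do not show how these reads differ from the shared strand, and their shares do not give the output of each locus.

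The opposite (3p) strands of the same hairpins, usually degraded after the 5p strand is loaded, held a small part of the counts. Counting strands of identical sequence once, the 12 listed 3p strands held 1.45% and 1.44% of the mature counts in cells and 0.434% and 0.458% in exosomes. By edgeR's quasi-likelihood test 6 of the 9 distinct strands tested were called lower, against 29.5% of all tested miRNAs. Of these, let-7f-2-3p (0 and 0 counts in exosomes), let-7g-3p (1 and 0) and let-7i-3p (7 and 0) had enough counts for the test only through the cells. Most of the 3p counts were let-7d-3p, with 32550 and 28233 counts in cells and 134 and 51 in exosomes. That is 16.4% and 17.1% of the arm counts of its hairpin in cells and 12.6% and 18.8% in exosomes.

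miR-99, miR-100 and miR-125 lie in clusters with let-7 in animal genomes, and 3 of their 5 listed 5p strands could be tested. miR-125a-5p had 36664 and 32830 counts in cells and 227 and 56 in exosomes (log2 fold change -3.32, SE 0.58, adjusted p = 0.0158 from the edgeR quasi-likelihood fit). miR-99b-5p had 9150 and 8299 counts in cells and 46 and 7 in exosomes (log2 fold change -3.78, adjusted p = 0.0182 from the same edgeR fit). Both come from the cluster of let-7e and had larger log2 changes than let-7e-5p (-2.65), a difference that was not tested. miR-125b-5p had 128 and 200 counts in cells and 4 and 1 in exosomes and did not pass (adjusted p = 0.165 from the same edgeR fit). miR-99a-5p had 3 counts in each cell library and none in exosomes, and miR-100-5p had none.

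Of the 3p strands of these partners, 2 of 6 were tested. miR-99b-3p was called lower (log2 fold change -1.29) and miR-125a-3p higher (log2 fold change 1.73, from 189 and 170 counts in cells and 20 and 20 in exosomes), with adjusted p = 0.0476 and 0.0404 from the edgeR quasi-likelihood fit.

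Among 90 miRNAs outside the family with at least 10 counts in every library, the profile nearest to the summed members over the 4 libraries was that of miR-29a-3p, with a Euclidean distance of 0.57 in centred log2 normalized values. miR-125a-5p (0.64) and miR-25-3p (0.69) followed. miR-29a-3p had 12320 and 13095 counts in cells and 90 and 22 in exosomes, and miR-25-3p had 138198 and 136649 in cells and 1162 and 188 in exosomes. With 4 libraries in 2 groups such a likeness mostly reflects the fold change and the order of the exosome libraries.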

How the data were processed

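Small RNA libraries of MIN6 cells and MIN6-derived exosomes (2 each) were prepared with Takara's SMARTer smRNA-Seq chemistry for an Illumina HiSeq2500. Adapter trimming and rRNA removal by the authors were followed by alignment to the genome, to miRBase v21 and then to RNAcentral v10.0; the submitters' processing notes name mm10, cutadapt, Bowtie, Bowtie2, STAR, RSEM and edgeR without versions. They deposited whole-read counts per mature miRNA and per hairpin without normalization, and RPM values, which equal a count scaled to 1e+06 mature counts of its library. A column of joined reads per arm, deposited as text, was not used. Arm counts were the deposited counts per hairpin arm and per mature strand.

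Groups and replicate numbers came from the sample labels. Of 1101 miRNAs with a count, 438 passed filterByExpr of edgeR 4.0.16 (minimum count 10, R 4.3.3). The main comparison of exosomes and cells was the quasi-likelihood test with TMM factors (0.660 and 0.612 in cells, 1.80 and 1.38 in exosomes), and again with the sum of the 10 members as library size. Standard errors were derived from the log2 fold change and its F statistic. The fits were also run on simulated counts with known changes, drawn from a mean profile shared by both groups. This does not test them on groups as unlike as these. Single values were compared by two-sided exact permutation tests, and shares carry 95% Wilson intervals (scipy 1.17.1). The alternatives were other scalings, DESeq2 1.42.0, other filters, edgeR's exactTest, the replicate number as a block, other denominators and each library left out. The text names all 10 members, and other miRNAs by lists of cluster partners, cell type markers and nearest profiles. The members and lists were chosen with earlier results of these data known. Hairpin coordinates are RefSeq's on GRCm38, the build of mm10.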

Additional observations from a re-analysis of the deposited data

How the results depend on the processing

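The number of members called lower in exosomes, 7 under TMM, was 7 with RLE or upper quartile scaling (30.1% and 21.7% of all tested miRNAs called lower). It was 9 with at least 10 counts in every library (40% of 100 miRNAs), and 10 with DESeq2 (30.8% of 438), with no filter (18.3% of 1101) or with the exactTest (39.5% of 438). With library size alone it was 0 (3 at an unadjusted p under 0.05), and there the log2 fold change of let-7k turned to 0.25. Leaving out 1 library gave between 0 (either cell library) and 10 (either exosome library). With the replicate block it was 6 (24.9% of all tested miRNAs), let-7a-5p being lost. The replicate numbers mark no stated pairing, and with 2 pairs the correlation of same-numbered deviations was 0.19 over 438 miRNAs. Relative to the family sum, the count of higher members was 1 (40.4% of all tested miRNAs). It was 0 under no filter (26.9%) and 0 under the replicate block (36.1%). The count of lower members was 0 (1.14%), with 1 at 10 counts in every library (2% of 100 miRNAs). Both counts also moved with a library left out. The cause of these changes was not tested. The difference in the share of mature counts stayed negative in all 7 alternatives, from -52.5 to -26.1 points. In 1 of these, with all hairpin counts, members with several hairpins count more than once in the denominator only. The count of members with non-overlapping shares stayed between 8 and 10, with no share over all tested miRNAs to set beside it. Leaving out a library could not turn this sign or lower this count, because groups that are apart stay apart. Of 110 recomputed log2 fold changes of members, 73 kept their direction and side of the threshold, 22 lost the call, 14 gained it and 1 turned. The 20 recomputed pair ratios each left out 1 library and kept their direction. They could not turn, because the ratios of each pair were separated by group. Depth limits the exosome values: 11 counts of let-7k and 30 of miR-98-5p are the fewest behind a member.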
